A study of Mus musculus with 2 samples.

Results

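The comparison of an FABP4 knockout with a wild-type library of mouse intestinal epithelium, as the libraries are named, is taken here across all genes that have a fold change in the authors' deposited gene table, 16336 of 17219 genes. The table sets a library named F4KOEpi against a library named WTEpi, called F4KO Epi and WT Epi below, and a table of transcripts makes the same comparison for 42245 of 49739 transcripts. The series asked what depletion of FABP4 in intestinal epithelial cells does to gene expression. Its labels describe cultured intestinal organoids, grown from mouse crypts for 6 days. In one genotype floxed Fabp4 alleles were combined with villin-Cre, a recombinase driven in gut epithelium that spares the other cells of the gut wall, and in the other genotype the floxed alleles stood alone. The first is called F4KO and the second WT, and the genotype label of the first says knockdown where the titles and the design text say knockout. No label used here describes the Epi libraries, so their genotypes are read from their names, and the segment of intestine, the way the epithelium was isolated, the age and sex of the mice and any pooling are not given. Which library stands on top of a fold change is likewise taken from the order in which the header names them. Each genotype had 1 library, so no difference below has a replicate check, and the deposited false discovery rate (FDR) compares 2 libraries and not 2 genotypes.

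Fatty acid binding proteins are small carriers that hold long-chain fatty acids and related lipids inside cells. FABP4 is best known from adipocytes and macrophages, whereas absorptive cells of the small intestine carry mainly FABP1 and FABP2. The epithelium renews itself from stem cells at the base of the crypts, whose dividing daughters mature as they move up into absorptive enterocytes, with a brush border that digests and takes up sugar, peptides and fat, or into secretory cells such as Paneth, goblet, enteroendocrine and tuft cells.

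Differences are given as centred log2 fold changes, F4KO Epi over WT Epi, which are the deposited log2 fold changes less 0.35, the median of the measured genes. The 12305 genes that reached 20 reads, summed over the pair of libraries, are called measured. Read numbers were worked back from the deposited p-values, and the F4KO Epi library held 0.813 times as many reads as the WT Epi library. Folds below are relative to the median gene and so already allow for that. A gene was called where the centred change was at least 2-fold and the deposited FDR was 0.001 or less. By that rule 933 genes (7.58%) were higher and 333 genes (2.71%) were lower in F4KO Epi, while 67.1% of measured genes lay within 1.5-fold of the median gene. Counts of called genes in each list below are to be set beside these shares of 7.58% and 2.71%. Without centring the split was 1776 higher and 157 lower. The quartiles of all measured genes were -0.34 and 0.46, and gene lists are read against that range. Of 50 lists with at least 5 measured members, 11 had a median above it, 17 below it and 22 inside it. The difference also moved with the read number. Genes with 20 to 99 reads had a median of 0.43 and those with 3000 or more a median of -0.26. Some lists are therefore also given centred within genes of like read number. In that centring the smallest fitting total set the read number where several read pairs fitted. The 1108 genes that no pair fitted formed a group of their own, whose read numbers are not known. That group takes in the 110 genes with a deposited p-value of 0, so it depends partly on the size of the difference itself. Lists given without that value can depend on read number too.

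**Figure D1:**
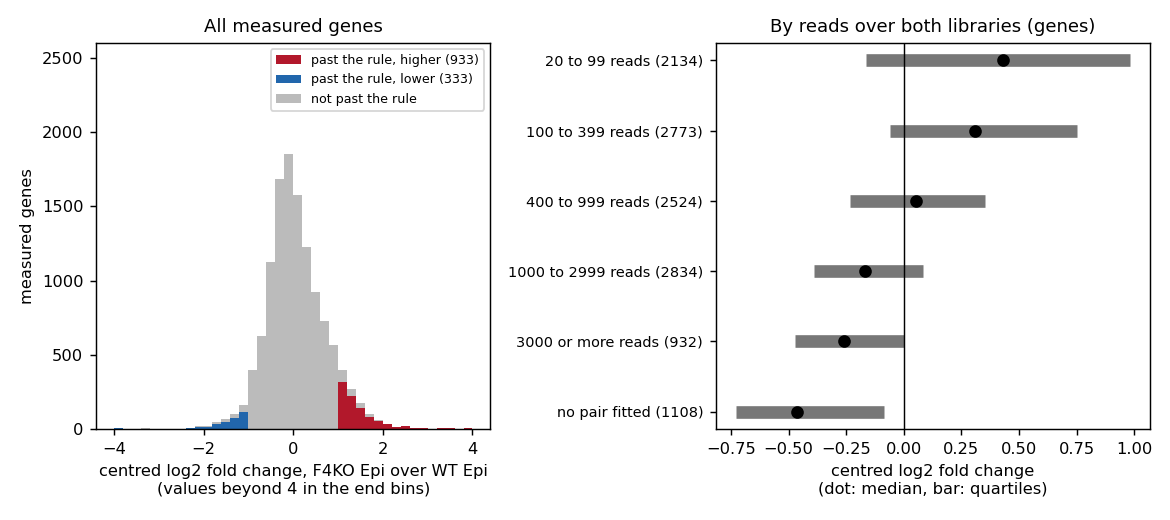
Left, the number of measured genes (vertical axis) by centred log2 fold change, F4KO Epi over WT Epi, with the 933 genes called higher in red and the 333 called lower in blue. Right, the median (dot) and quartiles (bar) of the same quantity by reads over both libraries, where the median runs from 0.43 at 20 to 99 reads down to -0.26 at 3000 or more, and to -0.46 for genes that no read pair fitted.

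Fabp4 itself (chr3:10204342-10208616, build GRCm38) was almost absent from both libraries. It had 4 reads in F4KO Epi and 1 read in WT Epi, a ratio of 3.86 with an exact 95% interval of 0.382 to 190, and it did not reach 20 reads. Its deposited FDR was 0.213, per the authors' deposited table. A loss of the transcript from F4KO Epi could not be detected at this depth, and the genotype names of the Epi libraries have no check from this gene. Intervals here and below cover counting error in 1 library per genotype and nothing else.

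Epithelial markers were present. All 14 listed general epithelial genes were measured, with a median of -0.43, or -0.09 within genes of like read number. Krt20, a keratin of mature surface cells, was the 1 member called, at -1.14. Epcam, an adhesion protein of epithelia, lay at -0.56 and Cdh1, E-cadherin, at -0.47, neither past the rule. Both libraries carried reads of Y-linked genes. The 5 measured Y-linked genes ran between -0.37 and 0.22, with Uty at 507 reads in F4KO Epi and 455 in WT Epi, Ddx3y at 0.22, Eif2s3y at -0.37, Kdm5d at -0.05 and Uba1y at -0.08, while Usp9y did not reach 20 reads. Of 7 measured X-linked genes that escape inactivation, Utp14a was called higher at 1.21, and Kdm6a at -0.07, Kdm5c at -0.32, Ddx3x at -0.40, Eif2s3x at 0.24, Pbdc1 at 0.48 and Mid1 at 0.43 were not called.

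Markers of cells outside the epithelium differed between the libraries. In bulk RNA, more cells of a type and more RNA per cell cannot be told apart. Acta2, the actin of smooth muscle, had 61 reads in F4KO Epi and 3 in WT Epi, a ratio of 19.6 (exact 95% interval 6.40 to 97.7). Myh11, the smooth muscle myosin, had 42 reads in F4KO Epi and 4 in WT Epi. Of 8 measured smooth muscle genes 5 were called higher and 0 lower, and over the 11 genes of that list with a printed read number the sum was 439 reads in F4KO Epi and 166 in WT Epi, with Cnn1 and Lmod1 at 0 in WT Epi. Fibroblast genes gave 4 higher and 0 lower of 12 measured. Among them Col1a1, a collagen chain, had 33 reads in F4KO Epi and 4 in WT Epi. Col3a1, another collagen chain, had 36 reads in F4KO Epi and 5 in WT Epi, and Dcn, decorin, had 23 reads in F4KO Epi and 6 in WT Epi. The sum over 15 fibroblast genes was 2528 reads in F4KO Epi and 2092 in WT Epi, most of it from Gsn, and Lum, Pdgfra, Postn and Cxcl12 were at 0 in WT Epi. Other members went the other way. Of the 12 measured fibroblast genes 4 lay below the median gene, the lowest at -0.82. Of the 8 measured smooth muscle genes 2 lay below it, the lowest at -0.46. Among genes with 100 reads or more, the list medians were -0.30 for fibroblasts and -0.016 for smooth muscle.

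Red cell transcripts went the other way. Hba-a2, an alpha globin, had 19 reads in F4KO Epi and 263 in WT Epi. Hba-a1 had 48 reads in F4KO Epi and 353 in WT Epi, and Hbb-bs, a beta globin, had 48 in F4KO Epi and 408 in WT Epi. The sum over 5 red cell genes was 125 reads in F4KO Epi and 1062 in WT Epi. The globin copies are close enough in sequence for reads to be split between them. Mast cell proteases of the mucosa were higher, with Mcpt1 at 211 reads in F4KO Epi and 40 in WT Epi and Mcpt2 at 61 in F4KO Epi and 21 in WT Epi. The list of myeloid and mast cells had 5 genes called higher and 0 lower of 19 measured, and a sum of 1207 reads in F4KO Epi and 587 in WT Epi over 21 genes, while the macrophage markers Csf1r at -0.14 and Cd68 at 0.10 did not pass. T lymphocyte genes had 0 called higher and 1 lower of 30 measured, Cd8b1, with 51 reads in F4KO Epi and 123 in WT Epi, and Cd3e stood at 0.02. B and plasma cells had 5 measured genes, of which 2 were called higher and 0 lower, with values between -1.69 and 2.20. Jchain, the joining chain of secreted antibodies, was among those called, with 182 reads in F4KO Epi and 83 in WT Epi. What part these cells had in the other differences was not tested.

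**Figure D2:**
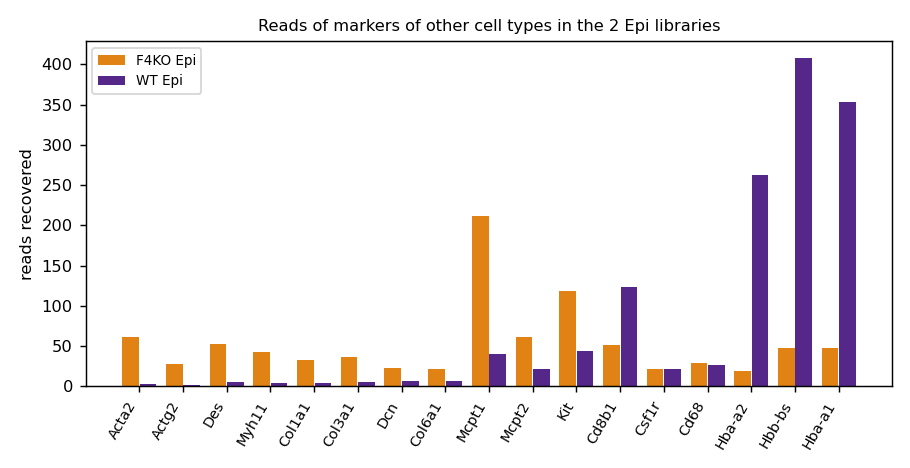
Reads recovered (vertical axis) for markers of smooth muscle (Acta2 to Myh11), fibroblasts (Col1a1 to Col6a1), mast cells (Mcpt1 to Kit), T cells (Cd8b1), macrophages (Csf1r, Cd68) and red cells (Hba-a2 to Hba-a1), F4KO Epi in orange and WT Epi in purple, not scaled for library size. The markers shown were picked from longer lists, and some other smooth muscle and fibroblast genes lay below the median gene. The smooth muscle, fibroblast and mast cell markers shown had more reads in F4KO Epi. The globins had 19 to 48 reads in F4KO Epi against 263 to 408 in WT Epi.

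The genes highest in F4KO Epi, among those called with 100 reads or more, were of mixed kinds. Lrg1, a secreted leucine-rich glycoprotein of inflammation and vessel growth, had 325 reads in F4KO Epi and 31 in WT Epi, 10.1-fold higher (exact 95% interval 6.99 to 15.1), and the authors' deposited table gives it an FDR of 8.88e-76. Ccl20, the chemokine that draws CCR6-bearing lymphocytes to mucosal follicles, had 198 reads in F4KO Epi and 24 in WT Epi. A cluster of 3 gasdermin C genes on chromosome 15 followed. Gsdmc2 had 1284 reads in F4KO Epi and 171 in WT Epi. Gsdmc3 had 463 reads in F4KO Epi and 63 in WT Epi, and Gsdmc4 had 1221 reads in F4KO Epi and 229 in WT Epi. These neighbours (chr15:63824328-63845193, chr15:63857605-63878579 and chr15:63891140-63912319) are much alike in sequence, so how their reads divide is uncertain. Mt1, a metallothionein that binds zinc, was 7.97-fold higher at a read number that no pair fitted. Plet1, a surface protein of epithelial progenitors, had 800 reads in F4KO Epi and 138 in WT Epi.

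Some genes of lipid metabolism were also among the 15 highest of these. Lipg, endothelial lipase, had 92 reads in F4KO Epi and 11 in WT Epi. Scd2, a stearoyl-CoA desaturase, was 6.61-fold higher. Lpin1, the phosphatidate phosphatase lipin 1, had 190 reads in F4KO Epi and 33 in WT Epi. Pou1f1, known as a pituitary transcription factor, had 172 reads in F4KO Epi and 24 in WT Epi. Plch2, a phospholipase C, Aqp4, a water channel, and Mcpt1 were the other members of those 15 described here, at 2.52, 2.39 and 2.35.

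The genes lowest in F4KO Epi, by the same limit of 100 reads, were of mixed kinds too, with the 3 globins named above among them. Pdk4, the kinase that shuts pyruvate out of oxidation, had 66 reads in F4KO Epi and 623 in WT Epi, 9.68-fold lower. Angptl4, a secreted inhibitor of lipoprotein lipase, had 367 reads in F4KO Epi and 2156 in WT Epi. Sprr1a, a small proline-rich protein, had 108 reads in F4KO Epi and 780 in WT Epi. Acox2, a peroxisomal oxidase of bile acid side chains, had 73 in F4KO Epi and 370 in WT Epi. Sgk1, a kinase of sodium handling, was 5.24-fold lower and Tm4sf4, a tetraspan membrane protein, 4.89-fold lower. Gal3st2b, a sulphotransferase, Cyp2c29, a cytochrome P450, Slc38a8, an amino acid transporter, and Cemip, a hyaluronan-binding protein, lay at -2.76, -2.89, -2.32 and -2.28. The lowest value of all belonged to Fam177a2 (chr12:55199264-55217168), with 0 reads in F4KO Epi and 228 in WT Epi, at least 78.8-fold lower when the 0 is set to a floor of 3 reads. Its neighbour Fam177a is a near-identical copy, and their reads cannot be told apart with confidence.

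**Figure D3:**
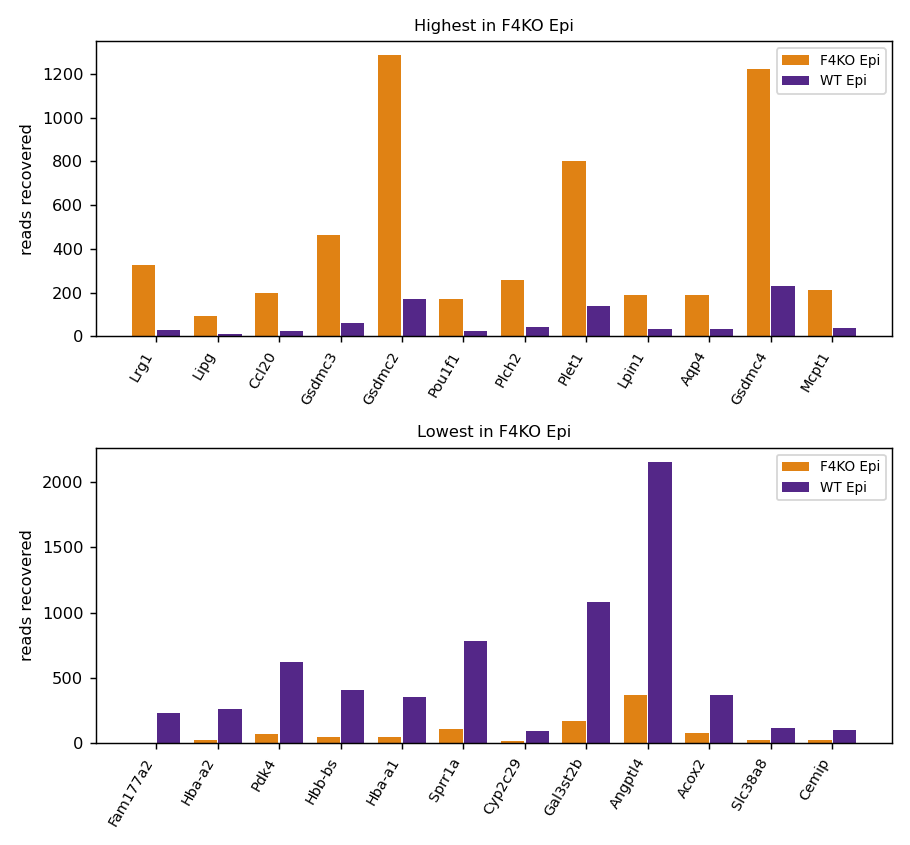
Reads recovered (vertical axis) for genes with a printed read number among those with the largest centred differences at 100 reads or more, highest in F4KO Epi above and lowest below, F4KO Epi in orange and WT Epi in purple. In the upper panel each F4KO Epi bar stands above its WT Epi bar, from Lrg1 with 325 reads in F4KO Epi and 31 in WT Epi to Mcpt1 with 211 reads in F4KO Epi and 40 in WT Epi, and in the lower panel the WT Epi bars are the taller, as for Angptl4 with 367 reads in F4KO Epi and 2156 in WT Epi.

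Genes for fatty acid binding proteins of the enterocyte were lower in F4KO Epi. Of 7 measured members of the family 0 were called higher and 3 lower, and the list median was -1.07. Fabp1, the liver-type carrier, stood at -1.51, Fabp2, the intestinal-type carrier, at -1.49, and Rbp2, the retinol carrier of enterocytes that belongs to the same family, at -1.54. Fabp6, the ileal bile acid carrier, did not pass, at -0.20, and neither did Fabp5 with 41 reads in F4KO Epi and 31 in WT Epi. Centred within genes of like read number, the list median was -1.05.

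Fat absorption genes were lower too. All 27 genes of the list were measured and all 27 lay below the median gene, with 9 called lower, 0 higher and a list median of -0.83. Apoa4, an apolipoprotein of chylomicrons, stood at -1.65, and Apob, the structural protein of those particles, at -1.02. Cd36, a fatty acid receptor of the cell surface, had 396 reads in F4KO Epi and 922 in WT Epi. Pnliprp2, a lipase, had 203 reads in F4KO Epi and 673 in WT Epi. Plpp3, a lipid phosphatase, had 96 reads in F4KO Epi and 267 in WT Epi. Lower too was Scarb1, the scavenger receptor for HDL, with 25 reads in F4KO Epi and 73 in WT Epi. Apoa1 at -0.73, Mttp, which loads lipid onto apolipoprotein B, at -0.77, and Dgat1, the enzyme of the last step of triglyceride synthesis, at -0.28 did not pass. Within genes of like read number the list median was -0.46.

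Genes of fatty acid oxidation, many of them targets of the lipid-sensing receptors PPAR alpha and delta, were on the low side. Of 28 measured, 8 were called lower and 0 higher, with a median of -0.67. Acot1, a thioesterase, had 9 reads in F4KO Epi and 87 in WT Epi. Cyp4a10, a fatty acid hydroxylase, had 5 reads in F4KO Epi and 36 in WT Epi. The peroxisomal thiolase Acaa1b had 320 reads in F4KO Epi and 1213 in WT Epi. Among members that were not called, Cpt1a, the gate of mitochondrial uptake, was at 0.01, Cpt2 at -0.80, Acadm at -0.58 and Acadvl at -0.46. The receptor Pparg had 118 reads in F4KO Epi and 273 in WT Epi, and Cidec, a lipid droplet protein, had 863 in F4KO Epi and 2698 in WT Epi. Within genes of like read number the list median was -0.32, which lies between the quartiles of all genes.

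Genes of lipid synthesis ran in the opposite direction. Of 14 measured genes of fatty acid synthesis and desaturation 6 were called higher and 1 lower, with a median of 0.66. Fasn, fatty acid synthase, had 1101 reads in F4KO Epi and 272 in WT Epi, 3.92-fold higher (the read ratio had an exact 95% interval of 3.42 to 4.47). Acaca, which makes the malonyl-CoA that Fasn uses, had 544 reads in F4KO Epi and 250 in WT Epi, and the desaturase Fads2 had 1317 in F4KO Epi and 523 in WT Epi. Fads1, Mid1ip1 and Scd2 were the other members called higher. Scd1, a desaturase related to Scd2, had few reads, 27 in F4KO Epi and 29 in WT Epi. Me1, malic enzyme, was the exception, with 210 reads in F4KO Epi and 682 in WT Epi.

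Genes of cholesterol synthesis and uptake leaned the same way. Of 24 measured genes 5 were called higher and 0 lower, and 20 lay above the median gene. The list median of 0.45 stayed just inside the upper quartile of all genes. Within genes of like read number it was 0.64, above that quartile, against 0.69 for fatty acid synthesis and desaturation. Lss, lanosterol synthase, had 537 reads in F4KO Epi and 179 in WT Epi. Mvd, which makes the isoprene unit, had 521 reads in F4KO Epi and 234 in WT Epi, and Acat2, a thiolase of the first step, had 308 reads in F4KO Epi and 140 in WT Epi. Hmgcs1, a synthase early in the pathway, at 0.45 did not pass. Npc1l1, the cholesterol importer of the brush border, was at -0.75 and not called. Of 8 genes on the sterol efflux list 1 was called, Mylip, with 147 reads in F4KO Epi and 295 in WT Epi. Mylip is a ubiquitin ligase and not a transporter. Abca1 at -0.61 and Abcg1 at -0.09 did not pass.

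Among 11 genes of bile acid handling 1 was called higher and 1 lower, which says little beside the 7.58% and 2.71% of all measured genes. Fgf15, the ileal hormone that restrains bile acid synthesis in the liver, had 680 reads in F4KO Epi and 287 in WT Epi, and Cyp3a11, a cytochrome P450 that hydroxylates bile acids and drugs, stood at -1.54. Slc10a2, the ileal bile acid importer, had 886 reads in F4KO Epi and 1622 in WT Epi, a centred change of -0.92 that did not pass.

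Brush border genes lay below the median gene, and most of them fell short of the rule. Over all measured genes 2.71% were called lower. Of 20 measured brush border hydrolases 4 were called lower and 0 higher, all 20 lay below the median gene, and the median was -0.67. Alpi, intestinal alkaline phosphatase, stood at -1.12, Mme, neprilysin, at -1.44, Enpp3 at -1.64 and Enpp7, which splits sphingomyelin, at -1.05. Lct, lactase, at -0.98 and Sis, sucrase-isomaltase, at -0.84 fell short of the rule. The 13 proteins that build the microvilli had 1 called, Ezr, ezrin, at -1.02, and a median of -0.62, with Vil1, villin, at -0.63 and Espn at -0.85. Within genes of like read number the hydrolases had a median of -0.23 and the microvillus proteins -0.17, both between the quartiles of all genes. A read number was printed for 1 listed hydrolase and for 0 microvillus proteins, so their grouping by read number is uncertain.

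Sugar uptake and fructose metabolism had 6 of 15 genes called lower and 0 higher, with a median of -0.92 and, within genes of like read number, of -0.54. Pck1, which opens gluconeogenesis, stood at -1.88, Slc5a4b, a relative of the glucose transporter SGLT1, at -1.78, and Slc2a2, the glucose exit transporter GLUT2, at -1.39. Fbp1, fructose bisphosphatase, had 187 reads in F4KO Epi and 519 in WT Epi. Slc5a1, which encodes SGLT1, was at -0.51 and not called. Peptide and amino acid transporters were mixed, with 3 called higher and 1 lower of 16. Slc7a5, a large neutral amino acid carrier, had 83 reads in F4KO Epi and 19 in WT Epi. Slc1a1, a glutamate carrier, had 1732 reads in F4KO Epi and 750 in WT Epi, and Slc38a2, a neutral amino acid carrier, had 1176 reads in F4KO Epi and 540 in WT Epi. The glutamine carrier Slc38a3 was on the low side with 8 reads in F4KO Epi and 38 in WT Epi. The brush border carriers Slc15a1 at -0.84 and Slc6a19 at -0.98 did not pass.

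Ion and water transport genes went both ways. Cftr, the chloride channel of crypt secretion, had 841 reads in F4KO Epi and 393 in WT Epi, and the potassium channel subunit Kcne3, which supports that secretion, had 395 in F4KO Epi and 120 in WT Epi. Aqp3, a water and glycerol channel, had 535 reads in F4KO Epi and 1793 in WT Epi, Clca4a stood at -1.92 and Aqp7 at -1.58. The 8 transcripts of Aqp7 did not share a direction and ran between -10.1 and 4.14. The list held 4 genes called higher and 5 lower of 24. Nt5e, with 985 reads in F4KO Epi and 2929 in WT Epi, Ada at -1.85 and Slc28a2 at -1.42, genes of purine breakdown and uptake known from the villus tip, were picked after their values had been seen. Genes of the proximal small intestine had 1 called higher and 5 lower of 14, with a median of -0.97. The 1 that was higher is Slc40a1, the iron exporter ferroportin, with 334 reads in F4KO Epi and 76 in WT Epi. Ces1g with 37 reads in F4KO Epi and 108 in WT Epi was among the 5 that were lower, and Gata4, a transcription factor of the proximal intestine, was at -0.71 and not called. Apoa4 and Fabp1 were among those 5 too, and are also counted on the lists of fat absorption and of fatty acid binding proteins. Colon genes had 1 called higher, B3galt5 with 1379 reads in F4KO Epi and 392 in WT Epi, and 3 lower of 12.

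Stem cell and division genes were higher in F4KO Epi. Of 23 measured intestinal stem cell markers 12 were called higher and 0 lower, with a median of 1.11, and within genes of like read number of 0.80. Olfm4, a secreted glycoprotein of crypt base cells, had 2229 reads in F4KO Epi and 941 in WT Epi. Lgr5, the R-spondin receptor that defines these cells, had 34 reads in F4KO Epi and 17 in WT Epi, a ratio of 1.93 over the median gene with an exact 95% interval of 1.05 to 3.68, and did not pass. Tnfrsf19 had 21 reads in F4KO Epi and 2 in WT Epi, a ratio of 10.1 with an interval of 2.48 to 89.1. Igfbp4, which fibroblasts also make, had 105 in F4KO Epi and 37 in WT Epi, and Slc12a2, a salt cotransporter of crypts, had 611 in F4KO Epi and 214 in WT Epi.

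The cell cycle list had 20 genes called higher and 0 lower of 32, a median of 1.21 and, within genes of like read number, of 1.03. Mki67, the proliferation antigen Ki-67, had 1242 reads in F4KO Epi and 469 in WT Epi, 2.56-fold higher (exact 95% interval of the read ratio 2.29 to 2.85). Top2a, a topoisomerase of dividing cells, had 929 in F4KO Epi and 334 in WT Epi. The cyclin Ccnb2 had 344 reads in F4KO Epi and 97 in WT Epi, and the cyclin Ccna2 had 729 reads in F4KO Epi and 226 in WT Epi. Bub1, a kinase that guards the spindle, had 115 reads in F4KO Epi and 33 in WT Epi, and Cdc20, which activates exit from mitosis, had 291 reads in F4KO Epi and 99 in WT Epi. Pcna at 0.25, Mcm2 at 0.45 and Rrm2 at 0.67, which act in DNA replication, did not pass. Cdkn1a, the cell cycle inhibitor p21, stood at -1.19.

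Ribosome genes were higher too. All 77 measured cytosolic ribosomal proteins but 1 lay above the median gene, 16 were called higher and 0 lower, and the median was 0.83, or 1.23 within genes of like read number. Rpl36 had 1657 reads in F4KO Epi and 704 in WT Epi, and Rps19 had 2614 reads in F4KO Epi and 1109 in WT Epi. Rpl3 stood at 1.09 and Rpl4 at 0.62, the last not past the rule. Ribosomal protein genes have many processed copies in the genome, which can share their reads. Genes that assemble ribosomes in the nucleolus had 11 called higher and 0 lower of 30, with a median of 0.91. Nop56, a core protein of small nucleolar particles, had 499 reads in F4KO Epi and 199 in WT Epi. Polr1b, a subunit of RNA polymerase I, had 132 reads in F4KO Epi and 45 in WT Epi. The processing factor Utp20 had 175 reads in F4KO Epi and 59 in WT Epi, and the RNA acetyltransferase Nat10 had 146 reads in F4KO Epi and 54 in WT Epi. Oxidative phosphorylation gave a contrast to these lists, with 0 of 53 subunits called, a median of -0.03 and a range of -0.59 to 0.28. Within genes of like read number its median was 0.32, between the quartiles of all genes. Core glycolysis had 0 of 17 called.

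**Figure D4:**
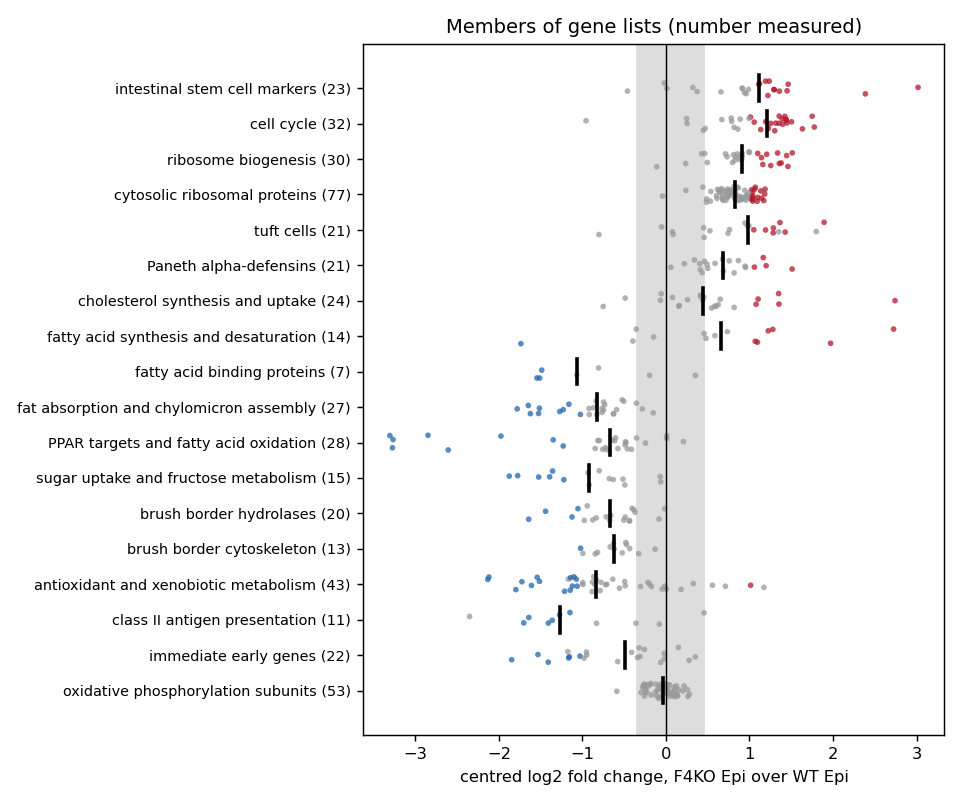
Centred log2 fold change, F4KO Epi over WT Epi (horizontal axis), of each measured member of 18 gene lists, red where called higher, blue where called lower and grey otherwise, with the list median as a black bar and the quartiles of all measured genes as a grey band. The lists of stem cells, cell cycle and ribosomes lie right of the band, with medians of 0.83 to 1.21, and those of fat, sugar and the brush border lie left of it, with medians of -0.62 to -1.07.

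Secretory lineages did not move as a block. Tuft cells, chemosensory cells that use eicosanoids, had 7 genes called higher and 0 lower of 21, with a median of 0.98. Dclk1, the usual tuft cell marker, had 199 reads in F4KO Epi and 80 in WT Epi. Alox5, 5-lipoxygenase, had 92 reads in F4KO Epi and 24 in WT Epi, and Rgs13, a regulator of G protein signals, had 122 reads in F4KO Epi and 54 in WT Epi. Trpm5, the cation channel of taste-like signalling, stayed at -0.05. Paneth cell defensins, antimicrobial peptides of the crypt base, were all above the median gene, with 4 of 21 called higher, 0 lower and a median of 0.68. Defa20 had 991 reads in F4KO Epi and 335 in WT Epi, and Defa17 had 2488 reads in F4KO Epi and 1070 in WT Epi. Defa2 did not pass, with 2917 reads in F4KO Epi and 1759 in WT Epi. The defensin genes are near copies of each other, so single members are uncertain. Of 14 other Paneth cell products 2 were called higher and 1 lower, Pnliprp2, which is also on the fat absorption list. Mmp7, which activates defensins, had 574 reads in F4KO Epi and 205 in WT Epi, and Habp2 had 71 reads in F4KO Epi and 16 in WT Epi. Lyz1, lysozyme, was at 0.28 and not called.

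Goblet cells had 2 genes called higher and 0 lower of 22, with a median of 0.10, and their main mucin Muc2 was at 0.21 and Tff3 at -0.44, neither called. Enteroendocrine cells had 2 called higher and 1 lower of 24. Over all measured genes 7.58% were called higher and 2.71% lower, so the goblet and enteroendocrine counts lie near the shares of all genes. Tac1, tachykinin, had 145 reads in F4KO Epi and 45 in WT Epi. Gcg, which encodes glucagon-like peptides, had 436 reads in F4KO Epi and 208 in WT Epi. Nts, neurotensin, was the 1 that was lower, with 899 reads in F4KO Epi and 1752 in WT Epi. Chga at -0.18 and Chgb at -0.02 did not pass. M cell genes had 2 called higher and 1 lower of 11, with Spib at 139 reads in F4KO Epi and 91 in WT Epi and Gp2 at 0 in F4KO Epi and 1 in WT Epi. The 2 were Ccl20, which is also on the chemokine list, and Ccl9, which is also on the goblet cell list. Transcription factors that steer absorptive and secretory fate had 0 of 26 called, Atoh1 among them at -0.35.

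Genes of class II antigen presentation were lower in F4KO Epi, as RNA. Of 11 measured genes 6 were called lower and 0 higher, with a median of -1.27, and -0.81 within genes of like read number. H2-Aa, an alpha chain, stood at -1.70, H2-Ab1, its beta partner, at -1.27, H2-Eb1 at -1.36 and Cd74, the invariant chain, at -1.15. H2-DMb1, part of the loader of peptides, had 805 reads in F4KO Epi and 2061 in WT Epi. Ciita, the coactivator that turns on the whole set, had 276 reads in F4KO Epi and 689 in WT Epi, a read ratio over the median gene of 0.386 (exact 95% interval 0.335 to 0.445), while its centred log2 fold change from the deposited table was -1.64. Ciita has several promoters used in different cell types, and the gene table does not separate them. By transcript its 4 values ran between -3.50 and 2.68, and the transcript at 2.68 did not pass the FDR limit. Class I genes gave 0 called of 25 and a median of -0.20, with B2m at -0.70 and H2-K1 at -0.43.

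The stretches before the start sites of 3 of the class II genes that were lower are shown because these genes share a known promoter layout, whose Y box is an inverted CCAAT element. Each runs over 100 bases up to the start site, from RefSeq on GRCm38.p6, written 5′ to 3′ on the strand of the gene, with the letters TGATTGG in capitals. H2-Aa lies on the minus strand at chr17:34287824-34287923, H2-Eb1 on the plus strand at chr17:34305767-34305866 and H2-DMb1 on the plus strand at chr17:34153091-34153190.
H2-Aa: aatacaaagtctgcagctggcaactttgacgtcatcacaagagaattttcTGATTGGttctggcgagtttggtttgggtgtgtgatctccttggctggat
H2-Eb1: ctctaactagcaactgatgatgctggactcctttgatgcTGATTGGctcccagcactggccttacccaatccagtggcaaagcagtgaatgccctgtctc
H2-DMb1: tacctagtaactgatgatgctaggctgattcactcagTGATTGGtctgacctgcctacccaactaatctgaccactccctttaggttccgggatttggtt
The first letter of the motif sits 50, 61 and 63 bases before the start of H2-Aa, H2-Eb1 and H2-DMb1, in that order. Searched on both strands in the 250 bases before each start, TGATTGG was found in 7 of the 10 genes of the list that have an entry, against 2375 of 32851 promoters of all genes (7.23%). It is also there in H2-DMb2, which had 18 reads in F4KO Epi and 13 in WT Epi and was not called, so the letters alone did not mark the genes that were lower. A match is a description of these letters, not a sign that a factor was bound.

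Interferon-stimulated genes had 0 called higher and 3 lower of 45, against 7.58% and 2.71% of all measured genes, with a median of -0.22. The 3 are GTPases of the interferon-gamma response. Gbp2 had 154 reads in F4KO Epi and 612 in WT Epi, Gbp6 had 683 reads in F4KO Epi and 1545 in WT Epi, and Igtp stood at -1.43. Genes known for type I interferon were not called, with Ifit1 at -0.40 and Ifit2 at 0.23. Ido1, the tryptophan-degrading enzyme that interferon gamma induces, was picked after its values had been seen and had 471 reads in F4KO Epi and 1813 in WT Epi. Chemokines and feedback genes of NF-kB had 3 called higher and 1 lower of 21. Besides Ccl20 the higher ones were Tnf, with 60 reads in F4KO Epi and 14 in WT Epi, and Ccl28, a mucosal chemokine, with 780 reads in F4KO Epi and 334 in WT Epi. Cxcl16 was the lower one, at -1.01. The neutrophil chemokines Cxcl1 and Cxcl2 had fewer than 20 reads.

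Secreted defence proteins split. Lcn2, lipocalin 2, which binds bacterial siderophores, had 35 reads in F4KO Epi and 3 in WT Epi, a ratio of 11.2 with an exact 95% interval of 3.55 to 57.2. Nox1, an epithelial oxidase, had 69 reads in F4KO Epi and 14 in WT Epi, and Dmbt1, a mucosal scavenger protein, was 2.91-fold higher. Sprr1a was on the low side, and the lectins Reg1 at 0.16 and Reg3a at -0.48 did not pass. In all 4 of 21 were called higher and 3 lower. Ly6a, a surface marker of regenerating epithelium, had 1899 reads in F4KO Epi and 646 in WT Epi, but other members of the same list were lower, Sprr1a, Krt20 and Emp1, the last at -1.23, so that the list held 1 called higher and 3 lower of 16. Tight junction genes had 0 called higher and 1 lower of 17, Cldn4, a claudin, which was 4.57-fold lower, and Cldn2, a claudin of crypts, had 1357 reads in F4KO Epi and 693 in WT Epi without passing.

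Detoxification genes were on the low side. Of 43 measured antioxidant and xenobiotic genes 14 were called lower and 1 higher, with a median of -0.83 and, within genes of like read number, of -0.39. Among those were glutathione transferases of the mu class, with Gstm1 at -2.13 and Gstm3 at -1.72. Gstm4, of the same class, had 128 reads in F4KO Epi and 426 in WT Epi. The cytochrome P450 Cyp2c66 had 349 reads in F4KO Epi and 1464 in WT Epi. These belong to families of like sequence. Nqo1, a target of NRF2, was at -0.20 and not called, and Gpx2, a glutathione peroxidase of crypts, was the 1 called higher, at 1.01. Retinoid genes had 2 called higher and 7 lower of 19. Aldh1a1, which makes retinoic acid, stood at -2.03 and Retsat, retinol saturase, at -1.61, while Stra6l, a relative of the retinol-binding protein receptor, had 94 reads in F4KO Epi and 30 in WT Epi.

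Phospholipases A2, which free fatty acids from membranes, and the enzymes of prostaglandins gave 5 called higher and 3 lower of 20. Pla2g4c had 71 reads in F4KO Epi and 7 in WT Epi, 9.55-fold higher. Pla2g5, a secreted enzyme, had 340 reads in F4KO Epi and 71 in WT Epi, and Pla2g4a, the cytosolic one that feeds prostaglandin synthesis, had 54 reads in F4KO Epi and 15 in WT Epi. Ptgs1, cyclooxygenase 1, stood at 1.43. On the low side were Ptger4, a prostaglandin E2 receptor, with 690 reads in F4KO Epi and 1753 in WT Epi, and Ptgr1 and Ephx2, which break down lipid mediators. Alox5 and Ptgs1 are also members of the tuft cell list.

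Stress genes did not share a direction. Immediate early genes had 6 called lower and 0 higher of 22, with a median of -0.49. Fosb had 278 reads in F4KO Epi and 769 in WT Epi. Atf3 had 847 reads in F4KO Epi and 2939 in WT Epi, Dusp1, a phosphatase of MAP kinases, had 167 reads in F4KO Epi and 428 in WT Epi, and Fos stood at -1.17. The unfolded protein and integrated stress responses had 3 called higher and 2 lower of 32, with the chaperone Hspa5 at 0.15. Atf3 is on both lists and is counted in each. Asns, asparagine synthetase, had 489 reads in F4KO Epi and 206 in WT Epi, and Chac1, which degrades glutathione, had 60 reads in F4KO Epi and 19 in WT Epi. Trib3, a pseudokinase of the same response, had 122 reads in F4KO Epi and 296 in WT Epi. Heat shock genes had 1 called, Hspa1b, with 89 reads in F4KO Epi and 190 in WT Epi. Targets of p53 had 2 called higher and 2 lower of 21, with Mdm2 at -0.44 and not called. The circadian clock had 0 of 16 called, with a median of -0.45 and Arntl at -0.29.

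The transcript table, made from the same 2 libraries and so no independent check, gave 7250 transcripts (17.2%) higher and 5185 (12.3%) lower by the same rule of size and FDR, with no limit on reads. Of the 933 genes called higher 97.2% had a transcript called higher, and of the 333 called lower 96.7% had a transcript called lower. However, 92 of the first and 45 of the second also had a transcript called the other way. Genes with 1 transcript gave nearly the same value in both tables, such as Pdk4 at -3.25 and Fabp1 at -1.48 by transcript. Gsdmc2 shows the limit of the transcript values, since its 14 transcripts ran between -5.64 and 8.70.

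The organoid libraries serve as the contrast for the epithelium. Between F4KO and WT organoids 15 genes (0.123%) were higher and 37 (0.304%) lower of 12159 measured, by the same rule. The deposited organoid FDR is above 1 for 767 genes, and adjusting the deposited p-values again by the Benjamini-Hochberg method gave the same 15 and 37 genes. Of the 829 genes called higher in F4KO Epi and measured in organoids, 1 was called higher and 7 lower there, and their median organoid value was -0.03. Of the 277 called lower in F4KO Epi and measured in organoids, 1 was called higher and 1 lower, with a median of -0.01. Over the 7 lists of lipid genes, 35 of the 40 genes called in Epi were measured in organoids, where 0 were called higher and 1 lower and values ran between -1.14 and 1.82. The 1 called was Pla2g5, with 247 reads in F4KO organoids and 554 in WT organoids, against a higher value in F4KO Epi. Angptl4 stood at -0.14 in organoids, Fasn at 0.14 and Scd2 at 0.08. The cell cycle list had an organoid median of -0.23, with Mki67 at 1462 reads in F4KO organoids and 2132 in WT organoids. The difference between the 2 comparisons was not tested. The organoid libraries also differed in Y-linked genes, which sets them apart from the Epi pair. Eif2s3y had 879 reads in F4KO organoids and 1 in WT organoids, and Ddx3y had 230 in F4KO organoids and 1 in WT organoids.

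**Figure D5:**
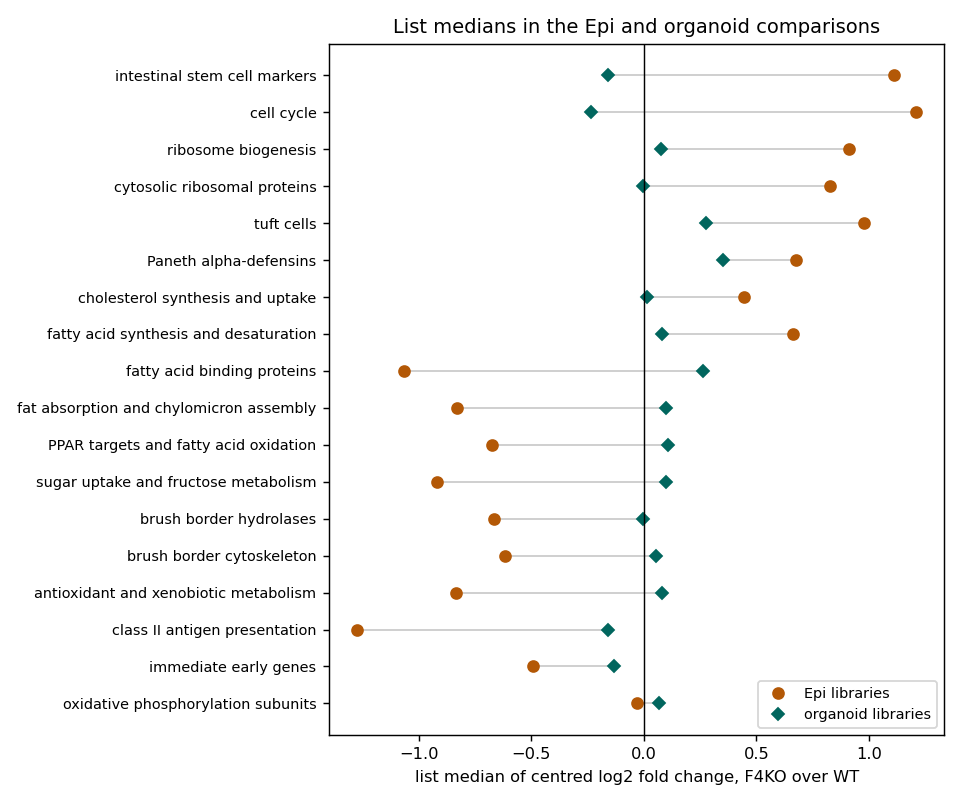
Median centred log2 fold change, F4KO over WT (horizontal axis), of 18 gene lists in the Epi comparison (circles) and the organoid comparison (diamonds), with 1 library per genotype in each. The Epi medians span -1.27 for class II antigen presentation to 1.21 for the cell cycle, and the organoid medians stay between -0.23 and 0.35.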

How the data were processed

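The deposited tables hold comparisons made by the authors and no level per library. The authors deposited for each gene a log2 fold change, a p-value, credited in the file headers to a Poisson test, and an FDR. For the organoids the deposited FDR runs above 1 and is a score. Per the submitters' processing notes, GRCm38 and mm10 were the builds. No source used here names the aligner or counter. The p-value was matched as a 2-sided Audic-Claverie test of 2 whole read numbers and the ratio of library totals (mean relative error 9.8e-07, 3288 genes), and a unique pair was printed for 9168 genes. With p-values shifted by 0.03%, 80 still matched, a false rate of 0.873%. Where several pairs fitted, the smallest set the total, and the 1108 genes that none fitted counted as measured. A read ratio can differ from the deposited fold. Intervals are exact (Clopper-Pearson, 95%). RefSeq matched 17172 gene IDs. No test of genotype was made. Lists count as outside the range of all genes where the median of at least 5 measured members lies outside the quartiles. Named genes are Fabp4, the 15 highest and 15 lowest called with at least 100 reads, up to 4 called members and the first 2 of each list, and the sex-linked lists whole, except a few genes that are not reported here. Others were chosen after their values were seen. Members and lists were chosen with earlier results of these data known. The 55 lists cover lipid handling, absorption, cell lineages, immune and stress responses, growth and other cell types. Python 3.11.15, pandas 2.3.3 and scipy 1.17.1 were used, and read recovery was tested on simulated data.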

Additional observations from a re-analysis of the deposited data

Results flagged for a closer look

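For 4 lists the medians lay outside the quartiles of all genes on opposite sides in the Epi and the organoid comparison, F4KO over WT in each, which is what drew attention to them. The difference itself was not tested, since each genotype had 1 library in each comparison. Fatty acid binding proteins had a median of -1.07 in Epi and of 0.26 in organoids. Sterol efflux had -0.50 in Epi and 0.36 in organoids. Cell cycle genes had 1.21 in Epi and -0.23 in organoids. Myeloid and mast cells had 0.52 in Epi and -0.38 in organoids, where 5 of their genes were measured. Centred within genes of like read number, the Epi medians of sterol efflux at -0.23 and of myeloid and mast cells at 0.16 lay between the quartiles.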

How the results depend on the processing

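The direction of the counts, more genes higher than lower in F4KO Epi, held under each alternative run. Without centring 1776 genes were higher and 157 lower, and called genes keep their sign, since the shift of 0.35 is smaller than the limit of 1. A fold of 1.5 gave 1949 higher and 1071 lower, and a fold of 4 gave 110 higher and 41 lower. The transcript table gave 7250 higher and 5185 lower, counted over transcripts. The other settings kept both counts within 1.5 times of the values reported, among them centring within genes of like read number, added after seeing the data, with 678 higher and 232 lower. Adjusting the organoid FDR again, added after seeing the data, gave the same 15 and 37 genes. Of 50 list medians 19 changed sign under at least 1 setting, 16 of them among the 22 inside the quartiles of all genes and 3 among the 28 outside. Of those inside, phospholipases A2 turned to -0.53 at 100 reads or more, core glycolysis to 0.14 within read number, and B and plasma cells to -1.06 with no filter on reads. Of those outside, the colon list turned to 0.27 with no filter on reads, to 0.19 at 100 reads or more and to 0.53 in the transcript table. Smooth muscle turned to -0.016 and fibroblasts to -0.30 at 100 reads or more, where Acta2, Myh11, Col1a1 and Col3a1 drop out for having fewer reads. Of 50 list medians, centring within read number moved 11 and left 39. Lists of both kinds went from outside to inside the quartiles of all genes. Among the 11 were bile acid handling at -0.03 and peptide and amino acid transporters at -0.07. Among the 39 were PPAR targets at -0.32, sterol efflux at -0.23, general epithelium at -0.09 and myeloid and mast cells at 0.16. No paired analysis was possible because each genotype had 1 library. Depth limits what can be said of Fabp4, Lgr5 and the markers of other cell types.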

Other observations

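Fam177a2 stood at opposite ends in the 2 comparisons. It had 0 reads in F4KO Epi and 228 in WT Epi, but 354 in F4KO organoids and 1 in WT organoids. Its neighbour Fam177a on chromosome 12, chosen after its values were seen, had 650 reads in F4KO Epi and 482 in WT Epi, and 180 in F4KO organoids and 531 in WT organoids. Summed over both copies there were 650 reads in F4KO Epi and 710 in WT Epi, and 534 in F4KO organoids and 532 in WT organoids.

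Mt1 and Mt2, neighbouring metallothionein genes on chromosome 8, parted in the Epi comparison, with Mt1 at 3.00 and Mt2 at -0.34, and were closer in organoids, at 0.40 and 0.34. Of the 2 Mt1 transcripts 1 stood at 8.75 and the other at 2.99. Cps1, a urea cycle enzyme, was called higher in F4KO Epi at 1.15, but its 2 transcripts went opposite ways, at 1.40 and -1.25. Mt2 and Cps1 were chosen after their values were seen. Autosomes did not differ as wholes, since the medians of the 19 autosomes ran between -0.09 and 0.06.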
